A study of Mus musculus with 10 samples.

Results

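Cd28, Ctla4 and Icos lie next to each other on mouse chromosome 1 and encode related receptors through which T cells receive signals beside that of the antigen receptor. Chromatin accessibility at these 3 genes was followed in regulatory T cells (Tregs) with and without Vps34. Every ATAC-seq peak in the body of one of the genes or within 10 kb of it was taken, on the GRCm38 assembly and its GENCODE annotation. The rule gave 38 of the 97385 peaks of the table, namely 15 at Cd28, 16 at Ctla4 and 7 at Icos, and all 38 held enough counts to be tested.

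CD28 is the main costimulatory receptor of T cells, and its ligands CD80 and CD86 sit on antigen-presenting cells. CTLA-4 binds the same ligands with higher affinity, removes them from the presenting cell, and is needed for the suppressive function of Tregs. ICOS, which binds ICOS ligand, is induced on activated T cells and marks effector Tregs.

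ATAC-seq uses the Tn5 transposase, which inserts sequencing adaptors into open DNA. The study compared Tregs sorted as CD4+Foxp3-YFP+TCRb+ cells from the spleen and the lung of 10-day-old mice on the C57BL/6 background. All mice carried a Cre recombinase with a YFP reporter expressed from Foxp3, the gene that defines the Treg lineage. Control mice were Foxp3-Cre with Pik3c3 +/+ or +/fl, so the controls carried Foxp3-Cre as well, and Vps34-deficient mice were Foxp3-Cre Pik3c3 fl/fl. Pik3c3 encodes Vps34, a lipid kinase of autophagy and endosomal traffic. There were 2 spleen control, 4 spleen Vps34-deficient, 2 lung control and 2 lung Vps34-deficient libraries. The labels do not say whether libraries came from separate or pooled animals, so p-values measure the spread between these libraries. Accessibility does not measure the deletion itself, and it was not checked here.

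Library totals ran from 9405823 to 22439699 counts, and values are given as CPM, the count of a peak scaled to a common library total. All 5 Treg marker genes looked for (Foxp3, Il2ra, Cd3e, Cd4 and Ikzf2) had peaks, 97 in all, with sums of 681 to 940 CPM, and 5 genes of resting Tregs had 141 peaks with sums of 1341 to 1777 CPM. The B cell gene Ms4a1 and the myeloid gene Lyz2 had none, while the other markers of B cells (9 peaks, 81.9 to 110 CPM in sum), myeloid cells (10 peaks, 66.5 to 92.1 CPM) and CD8 T cells (7 peaks, 15.1 to 31.4 CPM) did, as did those of lung epithelium (6 peaks, 41.3 to 60.8 CPM) and endothelium (25 peaks, 144 to 220 CPM). Without Vps34, 6 of the 97 Treg, 1 of 9 tested myeloid, 4 of 25 endothelial and 4 of 141 resting Treg peaks were called lower in lung (3.74% of all tested peaks), 3 of 141 resting Treg peaks higher in lung (1.22%) and 1 of 25 endothelial peaks higher in spleen (0.441%). In lung the control and Vps34-deficient sums did not overlap for CD8 T cells (15.1 to 17.6 against 24.5 to 28.8 CPM), B cells (93.6 to 97.1 against 81.9 to 87.8 CPM), myeloid cells (83.4 to 92.1 against 66.5 to 69.2 CPM), lung epithelium (53.0 to 58.7 against 59.0 to 60.8 CPM) and endothelium (188 to 220 against 144 to 164 CPM). Taken singly, 45.8% of all tested peaks also had no overlap between lung control and lung Vps34-deficient libraries. The CD8 peaks had a median log2 fold change without Vps34 of 0.71 in lung and 0.53 in spleen, with none of 6 tested peaks called. Peaks at 4 genes of terminal effector Tregs (Klrg1, Il1rl1, Il10 and Pparg) summed to 199 to 213 CPM in spleen control, 124 to 132 CPM in spleen Vps34-deficient, 265 to 376 CPM in lung control and 133 to 141 CPM in lung Vps34-deficient libraries. Of these 28 peaks, 10 were called lower without Vps34 in spleen (1.02% of all tested peaks) and 18 in lung (3.74% of all tested peaks), and 15 were called higher in lung than in spleen control (11.8% of all tested peaks). In Vps34-deficient cells 2 of the 28 were called higher in lung (12.5% of all tested peaks) and 1 lower (4.72%). In bulk samples fewer cells of a type and less accessibility per cell cannot be told apart, and the part of these shifts in the results for the 3 receptor genes was not tested.

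All 3 genes are read from the plus strand. Cd28 spans chr1:60716800-60773359, Ctla4 chr1:60887000-60915832 and Icos chr1:60977927-61000320. At Cd28 and Ctla4 the annotated body begins with a non-coding transcript that starts far before the coding one. Before the coding transcript lay 3 of 15 peaks at Cd28, of which 2 were upstream of the gene body, 10 of 16 at Ctla4, of which 2 were upstream, and 2 of 7 at Icos, both upstream. Peaks are named below by the distance of their centre from the start of the first coding transcript, with a minus sign before it.

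The sequences that follow come from the RefSeq copy of the GRCm38 genome (GRCm38.p6), plus strand, 5′ to 3′, and cover 300 bases around the centre of the peaks on which the comparisons turn. The last of them, Cd28 +6.82 kb, is a peak of 200 bases, so its sequence includes flanking bases outside the peak. Capitals mark matches, on either strand, to the letters of 9 motifs, which are AP-1 (TGANTCA), CRE (TGACGTCA), NFAT (TGGAAA), forkhead (TGTTTAC), ETS (CCGGAAG), RUNX (TGTGGT), TCF/LEF (CTTTGA), STAT (TTCNNNGAA) and kappa B (GGGNNTTCC). The first pair are neighbours before Ctla4 and are shown because one peak differed between tissues and the other between genotypes. The next pair are the intronic peaks that were lower without Vps34 in lung. The last pair differed between tissues in both genotypes and hold more than 1 match of the same motif, as does Ctla4 +1.98 kb, which is not shown.
Ctla4 -22.0 kb, chr1:60886885-60887184: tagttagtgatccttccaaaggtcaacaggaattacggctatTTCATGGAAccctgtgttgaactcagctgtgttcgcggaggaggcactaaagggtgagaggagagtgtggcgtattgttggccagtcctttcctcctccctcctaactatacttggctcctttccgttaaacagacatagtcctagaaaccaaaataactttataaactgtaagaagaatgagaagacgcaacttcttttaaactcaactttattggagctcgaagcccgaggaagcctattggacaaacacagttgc
Ctla4 -20.0 kb, chr1:60888844-60889143: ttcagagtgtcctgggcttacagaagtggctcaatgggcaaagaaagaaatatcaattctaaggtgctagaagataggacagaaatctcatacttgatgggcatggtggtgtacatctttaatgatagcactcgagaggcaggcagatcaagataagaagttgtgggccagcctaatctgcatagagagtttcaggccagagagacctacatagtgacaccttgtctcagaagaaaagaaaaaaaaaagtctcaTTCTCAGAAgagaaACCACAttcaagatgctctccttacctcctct
Ctla4 +2.75 kb, chr1:60911623-60911922: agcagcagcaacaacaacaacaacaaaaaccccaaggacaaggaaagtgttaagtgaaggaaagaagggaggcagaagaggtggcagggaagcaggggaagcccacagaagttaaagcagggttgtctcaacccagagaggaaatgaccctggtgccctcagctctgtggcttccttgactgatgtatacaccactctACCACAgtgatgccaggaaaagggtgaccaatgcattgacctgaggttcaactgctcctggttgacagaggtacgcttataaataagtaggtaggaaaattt
Icos +7.34 kb, chr1:60985117-60985416: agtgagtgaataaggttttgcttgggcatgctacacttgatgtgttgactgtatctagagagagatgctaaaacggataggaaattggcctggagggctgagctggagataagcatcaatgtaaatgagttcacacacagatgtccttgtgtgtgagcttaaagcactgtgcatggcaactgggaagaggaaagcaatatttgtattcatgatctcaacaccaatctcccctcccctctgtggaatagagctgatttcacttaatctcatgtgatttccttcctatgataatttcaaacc
Ctla4 -10.2 kb, chr1:60898644-60898943: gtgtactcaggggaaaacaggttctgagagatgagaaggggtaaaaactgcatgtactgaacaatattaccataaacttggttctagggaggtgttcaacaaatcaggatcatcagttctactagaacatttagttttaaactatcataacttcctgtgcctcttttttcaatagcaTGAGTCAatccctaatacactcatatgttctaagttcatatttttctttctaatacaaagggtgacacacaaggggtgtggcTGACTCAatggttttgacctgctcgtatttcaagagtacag
Cd28 +6.82 kb, chr1:60753024-60753323: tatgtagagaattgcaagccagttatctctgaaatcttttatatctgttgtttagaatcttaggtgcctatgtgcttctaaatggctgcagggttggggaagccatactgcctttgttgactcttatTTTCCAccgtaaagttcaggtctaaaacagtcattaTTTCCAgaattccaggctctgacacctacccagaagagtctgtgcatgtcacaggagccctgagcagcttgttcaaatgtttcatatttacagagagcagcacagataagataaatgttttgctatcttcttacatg

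The -22.0 kb window held 1 STAT match, and the -20.0 kb window held 1 STAT and 1 RUNX match next to each other. The Ctla4 +2.75 kb window held 1 RUNX match, and the Icos +7.34 kb window held none of the 9 motifs. The Ctla4 -10.2 kb window held 2 AP-1 matches, TGAGTCA and TGACTCA, and the Cd28 +6.82 kb window held 2 NFAT matches. Of the 38 peaks, 8 were narrower than the 300-base window, which then held flanking bases too. RUNX letters were present in the windows of 15 of the 38 peaks and NFAT letters in 14, against 26.5% and 24.0% of the windows of all peaks. AP-1 letters were present in 3 of 38 windows, against 13.0% of all windows, STAT letters in 7 of 38, against 9.30%, and TCF/LEF letters in 9 of 38, against 21.6%. In 1 of these 9, Ctla4 -14.3 kb, the match lay in the flanking bases, so 8 peaks held TCF/LEF letters within their bounds. Forkhead and kappa B letters were each present in 1 window, and CRE and ETS letters in none, against 4.34%, 5.97%, 0.846% and 4.44% of all windows. These matches are descriptions of the letters and not of binding. The median GC content of the windows was 43.7%, against 48.7% over the windows of all peaks. A RefSeq promoter was matched for 1 of the 3 genes, Ctla4 (the others being Cd28 and Icos). Its 250 bases before the start overlap the Ctla4 start peak and are shown because they include the bases before the start of Ctla4. They held 1 NFAT match, letters present in 21.4% of the 300-base promoter windows of all genes.
Ctla4 promoter, chr1:60908775-60909024: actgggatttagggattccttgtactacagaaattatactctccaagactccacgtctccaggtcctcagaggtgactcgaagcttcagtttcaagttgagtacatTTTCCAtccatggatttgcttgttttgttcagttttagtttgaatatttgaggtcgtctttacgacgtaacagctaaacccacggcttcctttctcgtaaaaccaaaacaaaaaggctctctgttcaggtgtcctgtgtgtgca

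**Figure D1:**
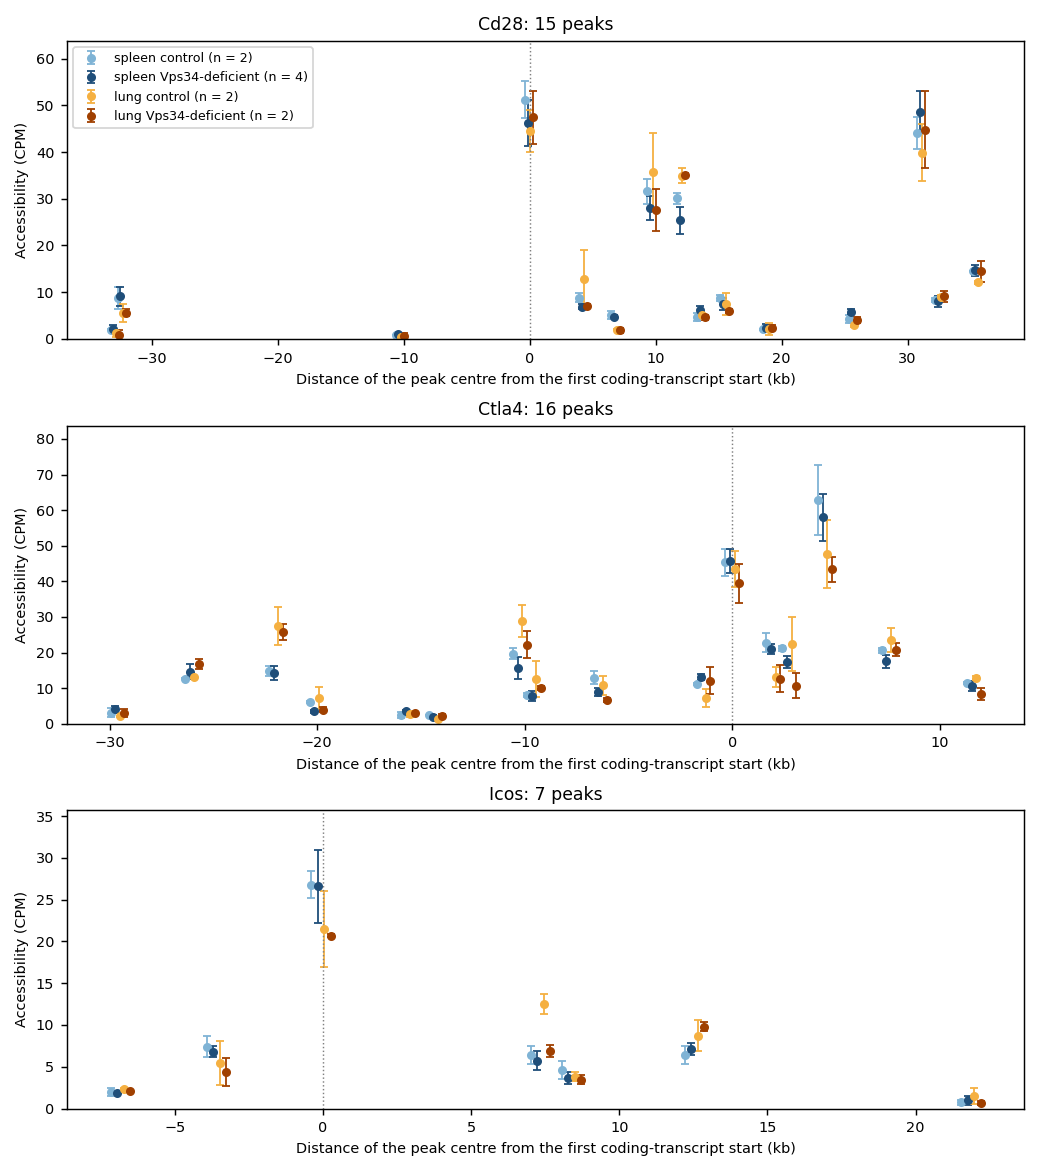
Accessibility of the 38 peaks (mean CPM, bars 1 SD) by group against the distance of the peak centre in kb from the start of the first coding transcript, with 1 panel per gene and the 4 groups shifted sideways to keep them apart. The Icos start peak and the +4.47 kb peak of Ctla4 are the highest of their genes in all 4 groups, and the Cd28 start peak is so in 3 groups, with the +31.1 kb peak above it in spleen Vps34-deficient cells (48.6 against 46.3 CPM).

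Each gene had 1 peak over its coding start. The Cd28 start peak (chr1:60746039-60746593, first exon) had 48.4 and 54.1 CPM in spleen control, 39.8, 50.5, 49.8 and 45.1 CPM in spleen Vps34-deficient, 41.3 and 47.7 CPM in lung control and 51.5 and 43.4 CPM in lung Vps34-deficient libraries. Those of Ctla4 (chr1:60908801-60909250, first exon) were 42.7 and 48.1, then 40.9, 47.5, 46.0 and 48.5, then 40.0 and 47.0, then 43.4 and 35.6 CPM in the same order. At the Icos start peak (chr1:60977659-60978069, first exon) the levels were 25.6 and 28.0, then 20.3, 30.0, 27.2 and 28.9, then 18.3 and 24.7, then 20.8 and 20.5 CPM. Control and Vps34-deficient libraries overlapped at all 3 start peaks in both tissues.

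The highest peak of Ctla4 was not the start peak but lay over exon 3 of 4 (+4.47 kb, chr1:60913232-60913759). It had 55.8 and 69.7 CPM in spleen control, 49.7, 58.1, 58.6 and 65.6 CPM in spleen Vps34-deficient, 40.9 and 54.3 CPM in lung control and 45.9 and 40.9 CPM in lung Vps34-deficient libraries. Mean levels over all 10 libraries ranged from 0.736 to 47.1 CPM at Cd28, from 1.93 to 53.9 CPM at Ctla4 and from 0.973 to 24.4 CPM at Icos. The start peak held 21.7% of the summed level of Cd28, 16.8% of that of Ctla4 and 46.3% of that of Icos. The 3 Cd28 peaks after the gene, at +31.1, +32.5 and +35.5 kb, overlap the annotated genes Gm11579 or 2310016D23Rik, and the Icos +12.5 kb peak overlaps Gm37039, so their signal cannot be given to one gene.

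Summed over its peaks, no gene had a called difference between groups. Cd28 had 225 ± 15.9 CPM (SD, n = 2) in spleen control, 217 ± 14.1 (n = 4) in spleen Vps34-deficient, 216 ± 29.7 (n = 2) in lung control and 212 ± 21.4 (n = 2) in lung Vps34-deficient Tregs. Ctla4 had 278 ± 22.8, 258 ± 20.4, 277 ± 51.2 and 241 ± 34.3 CPM, and Icos 54.2 ± 4.23, 52.8 ± 2.96, 55.9 ± 11.7 and 47.9 ± 0.209 CPM in the same groups. Per kb of peak the order was Ctla4 (37.2 CPM per kb over all libraries), Cd28 (33.2) and Icos (17.9), and the ranges of the sums of Cd28 (195 to 237 CPM) and Ctla4 (217 to 313 CPM) overlapped. By edgeR's quasi-likelihood test over 17643 genes no sum passed in any comparison, where 0.176% of genes did so for the genotype in spleen, 1.97% for the genotype in lung, 8.31% for the tissue in control, 9.64% for the tissue in Vps34-deficient cells, 2.45% for the average genotype effect and 0% for its difference between tissues. The 95% intervals of the genotype effect in lung were 0.875 to 1.15 times the control level for Cd28, 0.755 to 1.05 times for Ctla4 and 0.730 to 1.04 times for Icos. In spleen they were 0.866 to 1.09, 0.814 to 1.08 and 0.850 to 1.14 times.

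**Figure D2:**
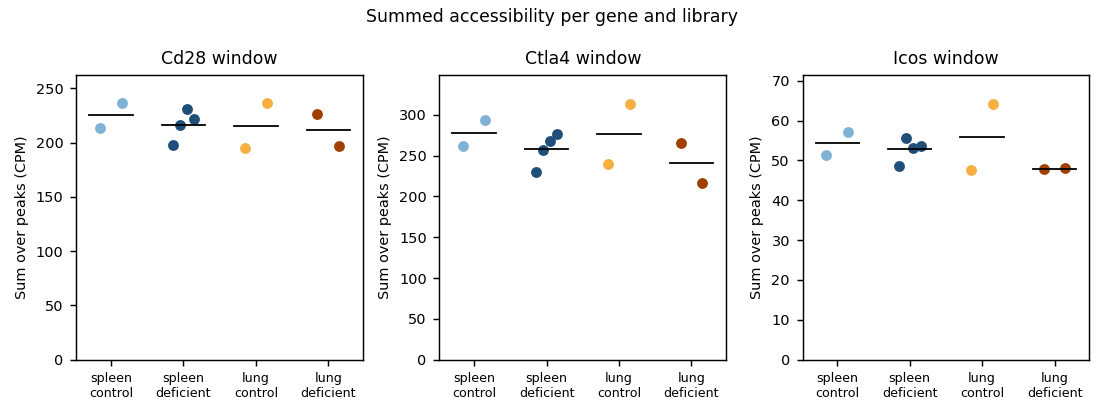
Summed accessibility (CPM, linear axis from 0) of the peaks of each gene in each library, with a dot per library and a line at the group mean. Control and Vps34-deficient libraries of a tissue overlap at every gene, and in lung control the 2 libraries lie at 240 and 313 CPM for Ctla4.

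In the groups of 2 libraries, most peaks of the 3 genes moved in the same direction from one library to the other. In lung control, replicate 2 was above replicate 1 at 31 of 38 peaks, with a median ratio of 1.25, although this held for 47.6% of all peaks of the table. In spleen control replicate 2 was above at 29 of 38 peaks (49.0% of all peaks), and in lung Vps34-deficient cells at 11 of 38 (51.3% of all peaks). The 11 peaks on chromosome Y summed to 56.9 to 67.6 CPM in 5 libraries and to 7.03 to 21.4 CPM in the other 5, with both kinds in every group. In the groups of 2 libraries, the library that was higher at most member peaks was the one with the lower chromosome Y sum, whose part in the result was not tested. Spleen Vps34-deficient libraries did not follow this order. Their replicate 1 (9.88 CPM on chromosome Y) had the lowest sum of each gene (198 CPM for Cd28, 230 for Ctla4, 48.7 for Icos). Replicate 4 (58.2 CPM) had the highest Ctla4 sum (276 CPM), and replicate 3 (7.67 CPM) the highest Cd28 sum (231 CPM). The sums of Cd28 and Ctla4 had a Pearson correlation of 0.92 over the 10 libraries, those of Ctla4 and Icos 0.83 and those of Cd28 and Icos 0.73, as a description of points that share depth and library effects. Among 10466 other genes, the sums most like that of Cd28 over the 10 libraries were those of Pbxip1 (r = 0.98), Kank3 (r = 0.98) and Slc35a2 (r = 0.97). For Ctla4 they were Frmd8 (r = 0.98), Flna (r = 0.97) and Sp2 (r = 0.97), and for Icos Brat1 (r = 0.96), Kdm2a (r = 0.95) and Anp32e (r = 0.95).

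The first comparison asked whether loss of Vps34 altered these loci in splenic Tregs. None of the 38 peaks passed the limits, which were a Benjamini-Hochberg adjusted p under 0.05 in edgeR's quasi-likelihood test and a log2 fold change beyond 0.5 in either direction, where 1.46% of all tested peaks did (0.441% higher and 1.02% lower). DESeq2's Wald test also gave 0, and 3 of the 38 had an unadjusted p below 0.05, all of them lower, against 14.3% of all peaks. The median log2 fold change was -0.05 over the 38 peaks and 0.05 over all peaks. Control and Vps34-deficient libraries did not overlap at 9 of 38 peaks, 3 higher and 6 lower, against 26.1% of all peaks (15% and 11.1%). Without lung control replicate 1 or 2 the fit called 1 peak, Ctla4 -20.0 kb, and with the spleen libraries alone 2, Ctla4 -20.0 kb and -6.34 kb, all lower.

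The peak nearest to the threshold in spleen was Ctla4 -20.0 kb (chr1:60888823-60889164), in an intron of the non-coding Ctla4 transcript. It had 5.97 and 6.34 CPM in spleen control against 3.27, 4.04, 3.43 and 3.16 CPM in spleen Vps34-deficient libraries, with no overlap. Its log2 fold change was -0.82 (SE 0.25, adjusted p = 0.103 by edgeR's quasi-likelihood test). In lung the levels were 5.10 and 9.53 CPM in control against 4.39 and 3.39 CPM, again without overlap, with a log2 fold change of -0.95 (SE 0.309, adjusted p = 0.0764). Leaving out lung control replicate 1 gave a called fall of -1.20 (adjusted p = 0.0152), whereas leaving out lung control replicate 2 gave -0.36 (adjusted p = 0.726). Averaged over both tissues, in a model with tissue and genotype, the peak was 1.83-fold lower without Vps34 (log2 fold change -0.87, SE 0.195, adjusted p = 0.00576). This call was made in all 17 fits of this comparison, each of the 10 that left out 1 library included, with log2 fold changes from -0.97 to -0.71.

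A further 3 peaks were lower without Vps34 on average over both tissues and none was higher, so that 4 of 38 passed where 7.57% of all peaks did (3.52% higher and 4.06% lower). The count was 2 without spleen control replicate 2, lung control replicate 2 or lung Vps34-deficient replicate 2, and with the replicate number as a block. Ctla4 -6.34 kb (chr1:60902427-60902934, also in an intron of the non-coding transcript) had 11.6 and 14.2 CPM in spleen control, 9.60, 9.79, 8.48 and 7.46 CPM in spleen Vps34-deficient, 8.93 and 12.7 CPM in lung control and 7.07 and 6.35 CPM in lung Vps34-deficient libraries. Every Vps34-deficient library lay below every control of its tissue, and the average log2 fold change was -0.61 (SE 0.151, adjusted p = 0.0118). Without spleen control replicate 2 it was -0.53 with an adjusted p of 0.0676, and with the replicate number as a block -0.53 with an adjusted p of 0.0756. Ctla4 +2.75 kb, described below for lung, also had an average log2 fold change of -0.61 (SE 0.160, adjusted p = 0.0174), which became -0.42 (adjusted p = 0.0577) without lung control replicate 2 and -0.45 (adjusted p = 0.0489) without lung Vps34-deficient replicate 2, the latter short of the fold limit.

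Cd28 +4.24 kb (chr1:60750431-60750757), in intron 1, was the only Cd28 peak among the 4. It had 8.11 and 9.50 CPM in spleen control, 6.82, 7.83, 6.72 and 6.39 CPM in spleen Vps34-deficient, 8.40 and 17.3 CPM in lung control and 7.39 and 6.77 CPM in lung Vps34-deficient libraries. Lung control replicate 2 stood apart from the other 9 libraries here. The average log2 fold change of -0.57 (SE 0.183, adjusted p = 0.0485) fell to -0.33 (adjusted p = 0.245) without that library, and the call was made in 4 of the 10 fits that left out a library. The others without it were those without spleen control replicate 2 (-0.56, adjusted p = 0.107), spleen Vps34-deficient replicate 1 (-0.61, adjusted p = 0.0525) or 4 (-0.57, adjusted p = 0.0731), and lung Vps34-deficient replicate 1 (-0.53, adjusted p = 0.106) or 2 (-0.49, adjusted p = 0.110). With the replicate number as a block it was -0.53 (adjusted p = 0.126).

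In lung Tregs 2 of the 38 peaks were lower without Vps34 and none was higher, where 4.96% of all tested peaks passed (1.22% higher and 3.74% lower). The median log2 fold change was -0.14 over the 38 peaks, against 0.02 over all peaks, and 26 of 38 values were negative. Groups did not overlap at 14 of 38 peaks, 5 higher and 9 lower, against 45.8% of all peaks (23.8% and 22%). The count was 6 without lung control replicate 1, all lower, and 1 without spleen control replicate 1 or 2 or lung Vps34-deficient replicate 1. Without lung control replicate 2 or lung Vps34-deficient replicate 2 the only peak called was Ctla4 -1.38 kb, which was higher. The genotype and the tissue comparisons share control libraries.

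Ctla4 +2.75 kb (chr1:60911616-60911928), in intron 1 between the start peak and the exon 3 peak, had 17.0 and 27.9 CPM in lung control and 13.2 and 8.26 CPM in lung Vps34-deficient libraries. In spleen it had 20.7 and 21.6 CPM in control and 17.2, 16.0, 19.6 and 16.3 CPM in Vps34-deficient libraries. All Vps34-deficient libraries were below the controls of their tissue, and the lowest level of the 10 was lung Vps34-deficient replicate 2. In lung it was 2.13-fold lower without Vps34 (log2 fold change -1.09, SE 0.224, adjusted p = 0.00445). The call was lost without lung control replicate 2 (-0.63, adjusted p = 0.198), without lung Vps34-deficient replicate 2 (-0.72, adjusted p = 0.107) and in a fit to the 4 lung libraries alone (-1.09, adjusted p = 0.0563). The genotype effect in spleen was -0.29 (SE 0.179, adjusted p = 0.507), and the difference between the tissues was -0.80 (SE 0.288, adjusted p = 0.523).

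Icos +7.34 kb (chr1:60985010-60985523), in intron 1 of Icos, had 11.7 and 13.4 CPM in lung control and 6.33 and 7.41 CPM in lung Vps34-deficient libraries. Spleen levels were 5.62 and 7.16 CPM in control and 7.02, 4.89, 4.69 and 6.32 CPM in Vps34-deficient libraries, so that lung control stood above the other 3 groups, which overlapped. In lung the peak was 1.87-fold lower without Vps34 (log2 fold change -0.90, SE 0.254, adjusted p = 0.0383), and in spleen the value was -0.16 (SE 0.218, adjusted p = 0.825). The lung call was lost without spleen control replicate 1 (-0.86, adjusted p = 0.0564) or 2 (-0.82, adjusted p = 0.0723), lung control replicate 2 (-0.75, adjusted p = 0.238) or lung Vps34-deficient replicate 1 (-0.71, adjusted p = 0.236) or 2 (-0.93, adjusted p = 0.111). It was also lost with the replicate number as a block (-0.90, adjusted p = 0.0875) and in the lung libraries alone (-0.90, adjusted p = 0.125).

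**Figure D3:**
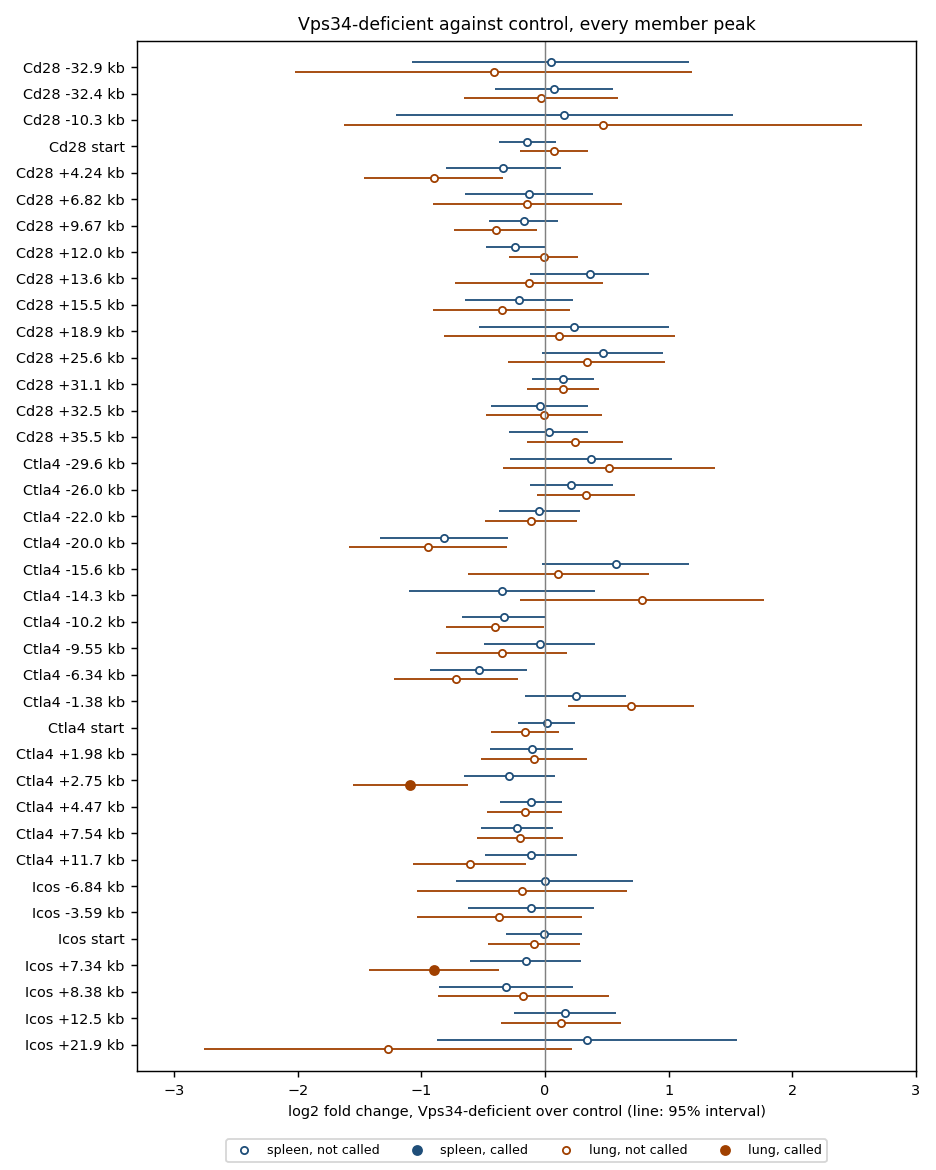
Log2 fold change of Vps34-deficient over control for each of the 38 peaks in spleen (blue) and lung (brown), with 95% intervals, filled where called. Only Ctla4 +2.75 kb and Icos +7.34 kb are filled, both in lung, at -1.09 and -0.90.

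No peak passed the test of a difference of the genotype effect between tissues by edgeR's quasi-likelihood test, as none did among all 97109 tested peaks (0%), and DESeq2's Wald test also gave 0 of 38. At an unadjusted p below 0.05 there were 2 of 38, against 7.27% of all peaks. These were Ctla4 +2.75 kb and Icos +7.34 kb, with adjusted p-values of 0.523 and 0.649. A difference between spleen and lung in the response to Vps34 loss was therefore not shown at these loci.

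The next comparison was lung against spleen, made within each genotype. In control Tregs 3 of the 38 peaks were higher in lung and 2 lower, where 15.4% of all peaks passed (11.8% higher and 3.53% lower). In Vps34-deficient Tregs 3 were higher and 3 lower, where 17.2% of all peaks passed (12.5% higher and 4.72% lower). The 2 comparisons used different libraries within 1 fit, and 4 peaks were called in both, which is 80% of the first set and 66.7% of the second. Groups did not overlap at 23 of 38 peaks in control, 10 higher in lung and 13 lower, against 58.2% of all peaks (28.6% and 29.6%). In Vps34-deficient cells they did not overlap at 14 of 38, 5 higher and 9 lower, against 42.3% of all peaks (20.7% and 21.6%). In control the count of 5 became 3 without spleen control replicate 1 and 2 without spleen control replicate 2, and in Vps34-deficient cells the count of 6 became 3 without spleen Vps34-deficient replicate 3 and with the replicate number as a block.

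The rise with the lowest adjusted p among the 38 peaks was at Ctla4 -22.0 kb (chr1:60886583-60887485), which covers an exon of the non-coding Ctla4 transcript and the annotated start of the gene. It had 13.8 and 15.8 CPM in spleen control and 12.1, 13.3, 16.5 and 15.2 CPM in spleen Vps34-deficient libraries. Lung levels were 23.6 and 31.2 CPM in control and 27.5 and 24.1 CPM in Vps34-deficient libraries, so that every lung library was above every spleen library. The peak was 1.96-fold higher in lung in control (log2 fold change 0.97, SE 0.181, adjusted p = 0.000758) and 1.87-fold higher in Vps34-deficient cells (0.90, SE 0.155, adjusted p = 0.000249). The second call was made in all 18 fits, and the first in 17 of 18, the exception being the fit without spleen control replicate 1 (0.77, adjusted p = 0.0553). The genotype effects at this peak were -0.05 (SE 0.158) in spleen and -0.11 (SE 0.180) in lung, neither of them called (adjusted p = 0.940 and 0.763).

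Ctla4 -10.2 kb (chr1:60898510-60899076), the peak with 2 AP-1 matches, had 18.7 and 20.7 CPM in spleen control, 13.2, 13.3, 16.2 and 19.8 CPM in spleen Vps34-deficient, 25.7 and 32.0 CPM in lung control and 24.9 and 19.5 CPM in lung Vps34-deficient libraries. Lung was above spleen in control, while lung and spleen Vps34-deficient libraries overlapped. The log2 fold change of lung over spleen was 0.63 (SE 0.190, adjusted p = 0.0240) in control and 0.56 (SE 0.167, adjusted p = 0.0209) in Vps34-deficient cells. Among fits that left out 1 library, the call was made in 5 of 10 in control and in 6 of 10 in Vps34-deficient cells. In control it was lost without spleen control replicate 1 (0.46, adjusted p = 0.282) or 2 (0.66, adjusted p = 0.0796), spleen Vps34-deficient replicate 2 (0.55, adjusted p = 0.0551) or 3 (0.55, adjusted p = 0.0533), or lung control replicate 2 (0.37, adjusted p = 0.277). In Vps34-deficient cells it was lost without spleen Vps34-deficient replicate 1 (0.44, adjusted p = 0.0820), 2 (0.44, adjusted p = 0.0965) or 3 (0.53, adjusted p = 0.0526), or lung Vps34-deficient replicate 1 (0.43, adjusted p = 0.202).

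Icos +7.34 kb was the third peak that rose in lung in control, 2.09-fold (log2 fold change 1.06, SE 0.247, adjusted p = 0.00464), a call lost without spleen control replicate 1 (0.79, adjusted p = 0.143). In Vps34-deficient cells its value was 0.32 (SE 0.227, adjusted p = 0.373). This comparison and the genotype effect in lung share the lung control libraries.

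There were 2 peaks that were lower in lung in both genotypes. Cd28 +6.82 kb (chr1:60753074-60753273), in intron 1, had 4.55 and 5.72 CPM in spleen control and 4.10, 4.89, 5.14 and 4.45 CPM in spleen Vps34-deficient libraries. All lung libraries were below these, with 1.91 and 2.12 CPM in control and 2.19 and 1.48 CPM in Vps34-deficient cells. It was 2.38-fold lower in lung in control (log2 fold change -1.25, SE 0.325, adjusted p = 0.00993) and 2.40-fold lower in Vps34-deficient cells (-1.27, SE 0.303, adjusted p = 0.00494). The first call was lost without spleen control replicate 2 (-1.14, adjusted p = 0.0690), and the second without lung Vps34-deficient replicate 2 (-0.97, adjusted p = 0.0962) and with the replicate block (-1.22, adjusted p = 0.0537).

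Ctla4 +1.98 kb (chr1:60910846-60911159), in intron 1 and next to the peak that was lower without Vps34 in lung, had 20.9 and 24.6 CPM in spleen control, 19.6, 22.8, 20.8 and 20.8 CPM in spleen Vps34-deficient, 11.3 and 15.2 CPM in lung control and 15.3 and 9.95 CPM in lung Vps34-deficient libraries. Spleen and lung did not overlap. The window of this peak held the only kappa B match of the 38, which overlaps 1 of its 2 NFAT matches. The log2 fold change of lung over spleen was -0.69 (SE 0.198, adjusted p = 0.0186) in control and -0.67 (SE 0.178, adjusted p = 0.0102) in Vps34-deficient cells. The control call was lost without spleen control replicate 2 (-0.62, adjusted p = 0.0949) or lung control replicate 1 (-0.58, adjusted p = 0.0928), and the other without lung Vps34-deficient replicate 2 (-0.35, adjusted p = 0.283) and with the replicate block (-0.69, adjusted p = 0.0742). Genotype effects at this peak were -0.11 (SE 0.163) in spleen and -0.09 (SE 0.208) in lung (adjusted p = 0.839 and 0.843).

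A further 2 peaks passed in Vps34-deficient cells alone. Cd28 +12.0 kb (chr1:60758083-60758660), in intron 1, had 29.2 and 30.9 CPM in spleen control, 23.4, 22.7, 26.9 and 28.7 CPM in spleen Vps34-deficient, 36.0 and 33.9 CPM in lung control and 35.0 and 35.3 CPM in lung Vps34-deficient libraries, so that lung was above spleen in both genotypes. Its log2 fold change of lung over spleen was 0.52 (SE 0.117, adjusted p = 0.00302) in Vps34-deficient and 0.29 (SE 0.135, adjusted p = 0.149) in control cells, with a difference of 0.23 (SE 0.179, adjusted p = 0.829). The value lay close to the fold limit of 0.5 and fell under it with library size scaling (0.47), with no filter on low counts (0.47) and without spleen Vps34-deficient replicate 1 (0.43), 2 (0.42) or 3 (0.49). Ctla4 +2.75 kb was lower in lung in Vps34-deficient cells (-0.62, SE 0.199, adjusted p = 0.0302) and had a value of 0.18 (SE 0.209, adjusted p = 0.635) in control. That call was lost without lung Vps34-deficient replicate 2 (-0.28, adjusted p = 0.473), spleen Vps34-deficient replicate 3 (-0.61, adjusted p = 0.0515) or spleen control replicate 2 (-0.57, adjusted p = 0.0537), and with the replicate block (-0.58, adjusted p = 0.175).

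**Figure D4:**
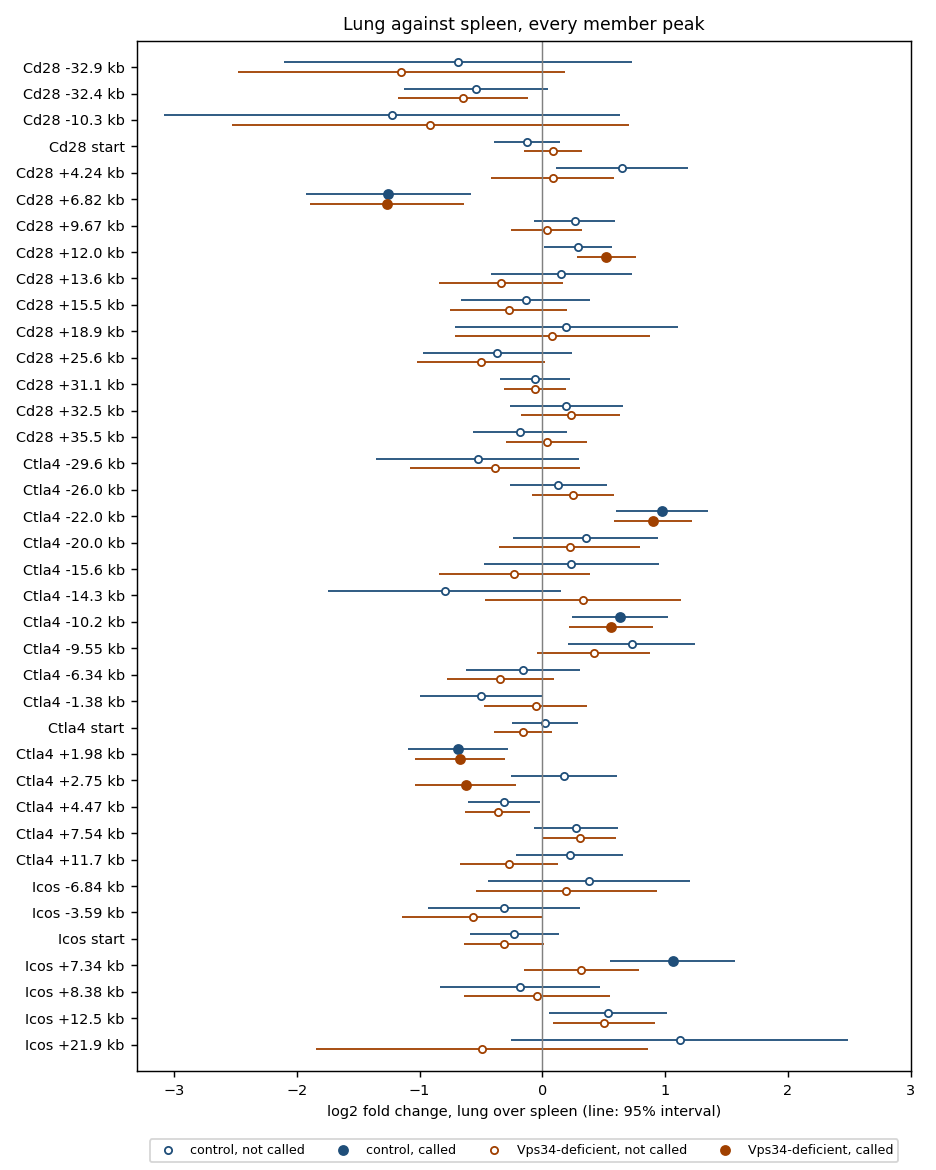
Log2 fold change of lung over spleen for each of the 38 peaks in control (blue) and Vps34-deficient (brown) Tregs, with 95% intervals, filled where called. Ctla4 -22.0 kb is at 0.97 and 0.90, and Cd28 +6.82 kb at -1.25 and -1.27.

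**Figure D5:**
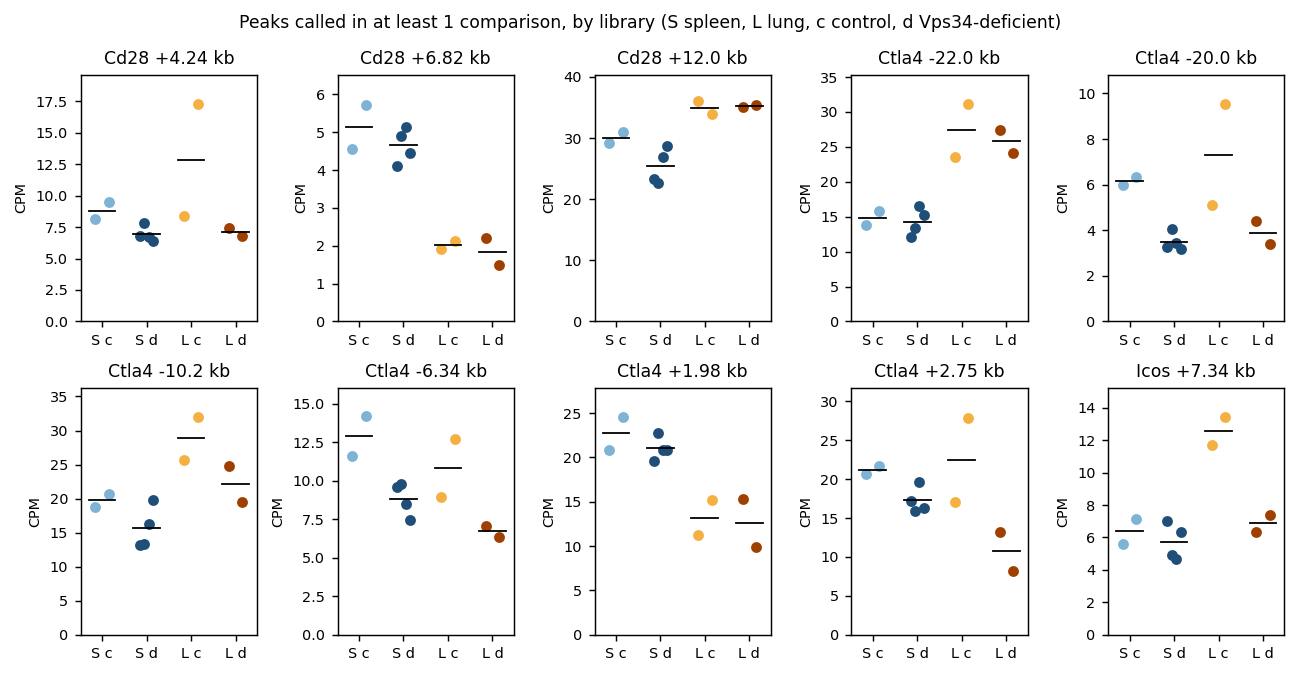
CPM of the 10 peaks that passed in at least 1 comparison, a dot per library and a line at the group mean, on linear axes from 0 (S spleen, L lung, c control, d Vps34-deficient). Ctla4 -22.0 kb separates lung from spleen, while Ctla4 -20.0 kb separates Vps34-deficient from control libraries in both tissues.

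Across the 6 comparisons 10 of the 38 peaks passed at least once, 3 of 15 at Cd28, 6 of 16 at Ctla4 and 1 of 7 at Icos, where 27.9% of all tested peaks did so, and 28 passed in none. No start peak was among them. The start peaks had log2 fold changes of genotype between -0.16 and 0.07 in spleen and lung, with the 95% interval widest at Icos in lung (-0.47 to 0.29). For tissue they lay between -0.31 and 0.09.

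The limit of 10 kb was set by the rule. The outermost peaks inside it were Cd28 +35.5 kb, 8.28 kb from the gene (14.5, 14.7, 12.1 and 14.5 CPM as means of spleen control, spleen Vps34-deficient, lung control and lung Vps34-deficient), Ctla4 -29.6 kb, 7.48 kb from the gene (3.16, 4.04, 2.05 and 2.93 CPM), and Icos -6.84 kb, 6.71 kb from the gene (1.94, 1.91, 2.37 and 2.11 CPM). The nearest outside lay 13.8 kb from Cd28 (2.62, 2.85, 2.90 and 3.33 CPM), 10.9 kb from Ctla4 (3.12, 2.90, 3.00 and 1.71 CPM) and 16.3 kb from Icos (9.14, 6.13, 6.61 and 5.81 CPM). Of the 9 peaks between 10 and 20 kb from the genes, 2 passed in at least 1 comparison, and both are described after their values were seen. The first, 11.3 kb before Ctla4 (chr1:60874888-60875665), had 12.8 and 11.8 CPM in spleen control, 9.60, 8.69, 10.6 and 10.2 CPM in spleen Vps34-deficient, 16.6 and 22.7 CPM in lung control and 10.5 and 8.47 CPM in lung Vps34-deficient libraries. It was lower without Vps34 in lung (log2 fold change -1.08, SE 0.211, adjusted p = 0.00303) and on average (-0.65, adjusted p = 0.00921), and higher in lung than in spleen in control (0.76, adjusted p = 0.0119). The other, 14.6 kb after Ctla4 (chr1:60930435-60930787), had 2.99 and 1.93 CPM in spleen control against 0.695, 0.489, 0.993 and 0.144 CPM in spleen Vps34-deficient libraries. In lung it had 1.28 and 3.03 CPM in control against 0.812 and 0.212 CPM. These low levels did not overlap between genotypes, and the log2 fold change was -2.02 (SE 0.518, adjusted p = 0.0474) in spleen and -2.05 (SE 0.707, adjusted p = 0.0960) in lung. On average over both tissues it was -2.03 (adjusted p = 0.00242), which passed.

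Other genes of this pathway were counted by the same rule of gene body and 10 kb. The 28 genes (further receptors, ligands, signalling proteins under the receptors, and proteins of CTLA-4 traffic) held 357 peaks. In spleen 1 was higher and 1 lower without Vps34, which is 0.560% against 1.46% of all peaks. In lung 5 were higher and 17 lower, which is 6.16% against 4.96%, and the median log2 fold change of the 357 was -0.06.

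Of the other receptors, Pdcd1, which encodes the inhibitory receptor PD-1, had 2 of 9 peaks lower in lung without Vps34. One (chr1:94042191-94042813) had 15.4 ± 0.875 CPM (SD, n = 2) in lung control and 3.12 ± 0.971 CPM (n = 2) in lung Vps34-deficient cells, a log2 fold change of -2.35 (SE 0.269, adjusted p = 1.27e-05). The other went from 18.5 ± 4.19 to 9.44 ± 0.718 CPM (adjusted p = 0.00604). Among ligand genes, Icosl, which encodes the ligand of ICOS, had 1 of 7 peaks (chr10:78092717-78093058) lower in both tissues, from 2.89 ± 0.195 to 0.853 ± 0.265 CPM in spleen (log2 fold change -1.76, adjusted p = 0.00720) and from 5.23 ± 0.183 to 1.79 ± 0.463 CPM in lung (-1.58, adjusted p = 0.0213). Cd86, a ligand gene of CD28 and CTLA-4, had 1 of 15 peaks lower (-0.98, adjusted p = 0.00872) and 1 higher (0.77, adjusted p = 0.00592) in lung, and Cd274, which encodes the PD-1 ligand PD-L1, 1 of 9 lower (-1.14, adjusted p = 0.0245).

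Signalling genes had 15 of 246 peaks called in lung, or 6.10%, near the 6.16% of all 357 pathway peaks and the 4.96% of all tested peaks. The adaptor gene Grap2 had 3 of 26 peaks lower (log2 fold changes -1.17 to -1.47, adjusted p = 0.00348 to 0.0350). The kinase gene Fyn had 3 of 43 lower (-0.67 to -0.99) and 1 higher (1.29), and Prkcq, which encodes protein kinase C theta, 1 of 31 lower (-0.95) and 1 higher (0.83). Pik3r1, a regulatory subunit gene of class I PI3K, had 2 of 24 higher (1.63 and 1.23). Rel, an NF-kB subunit gene, had 1 of 7 lower (-1.12). The adjusted p-values of the calls in Fyn, Prkcq, Pik3r1 and Rel ran from 0.00840 to 0.0452. Lrba, which protects CTLA-4 from lysosomal degradation, had 1 of 19 peaks higher in spleen (from 18.3 ± 3.33 to 31.5 ± 5.67 CPM, log2 fold change 0.79, adjusted p = 0.0254) and another lower in lung (from 6.01 ± 1.12 to 2.24 ± 0.418 CPM, -1.44, adjusted p = 0.0161).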

How the data were processed

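ATAC-seq libraries were made from sorted Tregs. Per the processing notes and the study's methods, the authors trimmed reads, aligned them to the mouse genome, removed duplicates with Picard, kept nucleosome-free fragments with the Tn5 shift, called peaks with MACS2 and merged those found in at least 50% of replicates; the notes name cutadapt 1.9, Picard 1.65, MACS2 2.1.0.20150603 and GRCm38, the methods another trimmer, Picard version and build. The deposited table holds raw counts per peak. Of the starts of 21951 genes, 51.2% lay in a peak on GRCm38, so that build was used. Between 91.4% and 96.4% of counts were even, as when both mates are counted.

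CPM was the count over the column total of 9405823 to 22439699. Tests used edgeR 4.0.16 in R 4.3.3, its quasi-likelihood test with TMM factors, all 10 libraries and 4 group means, over the 97109 peaks that passed filterByExpr, with Benjamini-Hochberg adjustment over all of them. Calls were made at an adjusted p under 0.05 with a log2 fold change beyond 0.5 in either direction. For the genotype effect averaged over tissues, the terms were tissue and genotype. Each 3 counts were worth 0.134 to 0.319 CPM. Gene sums were tested likewise over 17643 genes. DESeq2 1.42.0, other scalings, filters and windows, a replicate block, halved counts, subsets and each library left out were alternatives. The code was also run on simulated counts with planted changes and without shared library effects, which does not bear on the calls here. Members, lists and alternatives were chosen with earlier results of these data known. Values are given in every library for the start peak, the highest peak and each called peak of a gene, and for pathway genes every peak called between genotypes, some of which are not reported here. Genes of like pattern were the 3 protein-coding genes with the highest Pearson correlation of log2(CPM + 0.5). The methods give the spleen group sizes the other way round from the labels, which were followed and match the deposited column names.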

Additional observations from a re-analysis of the deposited data

Results flagged for a closer look

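The Cd28 +18.9 kb peak, over coding exon 3, had 1 spleen Vps34-deficient library far from the other 3. Its levels were 1.896, 1.95, 2.15 and 3.49 CPM, and the gap below the highest was 0.838 of the range, against a Dixon limit of 0.829 for 4 samples. This was 1 of 41 values examined, and chance passes about 1 in 20.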

How the results depend on the processing

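The number of member peaks called in spleen between genotypes was 0, and became 2 with the spleen libraries alone and 1 with a window of 20 kb. In lung it was 2. It became 3 with no filter on low counts and with halved counts, 1 with the replicate block and 0 with the lung libraries alone. Lung against spleen in Vps34-deficient cells gave 6 calls, and 3 to 7 over these alternatives, with the fewest under the replicate block. The average genotype effect gave 4 calls, and 2 to 6 over them, again with the fewest under the block. The cause was not tested. Leaving out 1 library gave 0 to 1 calls in spleen, 1 to 6 in lung, 2 to 7 for tissue in control, 3 to 7 for tissue in Vps34-deficient cells, and 2 to 5 for the average. In a group of 2 libraries, deviations from the group mean mirror each other, so the 2 pairs between 2 such groups share 1 correlation. Deviations of libraries with the same replicate number had correlations of -0.0978 to 0.0633 over 12 pairs, not all of them distinct, and those of the same genotype in the 2 tissues -0.0117 to 0.0376. The latter were alike in their chromosome Y sum (56.9 and 67.6, 7.03 and 12.8, 9.88 and 21.4, and 64.8 and 63.4 CPM in spleen and lung), and the labels do not say whether they share animals.

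Values near 0 changed sign. The Cd28 sum in lung between genotypes became -0.00265 with library size scaling, and between tissues in control 0.0117 with median-of-ratios factors, 0.0114 with DESeq2, 0.00142 with at least 20 counts in 2 libraries and 0.00423 with halved counts. The Ctla4 sum between tissues in Vps34-deficient cells became 0.0613 with the replicate block. The Ctla4 start peak between genotypes in spleen became -0.0254 with no filter, -0.0179 with halved counts, -0.0249 with the replicate block and -0.0191 with the spleen libraries alone. None of these was called.

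Leaving out 1 library at a time gave these ranges of log2 fold change. Between genotypes, the Cd28 start peak ran from 0.0124 to 0.26 in lung and from -0.28 to -0.0920 in spleen. The Ctla4 sum between genotypes in spleen ran from -0.17 to -0.0108. For the lung genotype effect Cd28 sum -0.0949 to 0.13, Ctla4 sum -0.31 to 0.0200, Icos sum -0.36 to 0.0209, Ctla4 start -0.24 to 0.0485, Ctla4 +2.75 kb -1.40 to -0.63, Ctla4 +4.47 kb -0.25 to 0.11, Icos start -0.18 to 0.20 and Icos +7.34 kb -0.93 to -0.71. For the spleen genotype effect Cd28 sum -0.11 to 0.0294, Icos sum -0.10 to 0.0529, Ctla4 start -0.13 to 0.0698, Ctla4 +4.47 kb -0.32 to 0.0264 and Icos start -0.13 to 0.0609. For the average genotype effect Cd28 +4.24 kb -0.70 to -0.33, Ctla4 -6.34 kb -0.71 to -0.52 and Ctla4 +2.75 kb -0.74 to -0.42. For the deficient tissue effect Cd28 sum -0.0518 to 0.15, Ctla4 sum -0.16 to 0.12, Cd28 +6.82 kb -1.54 to -0.97, Cd28 +12.0 kb 0.42 to 0.58, Ctla4 -10.2 kb 0.43 to 0.78, Ctla4 +1.98 kb -0.97 to -0.35 and Ctla4 +2.75 kb -0.96 to -0.28. For the control tissue effect Cd28 sum -0.12 to 0.11, Ctla4 sum -0.12 to 0.21, Icos sum -0.10 to 0.28, Cd28 +6.82 kb -1.52 to -1.14, Ctla4 -22.0 kb 0.66 to 1.08, Ctla4 -10.2 kb 0.37 to 0.70, Ctla4 +1.98 kb -1.02 to -0.58 and Icos +7.34 kb 0.79 to 1.19.
With 2 libraries in 3 of the groups, precision is limited.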
